A study of Brassica napus with 3 samples.

Results

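The 18 longest B. oleracea scaffolds that carried trimethylation of lysine 4 on histone H3 (H3K4me3) in canola leaf chromatin are described here, summit by summit and window by window. The members were selected on the measured summit positions: a scaffold was taken when its highest summit position over the lists of both lines was at least 2000000, as 18 of the 1287 scaffolds with a summit did. They held 4240 of the 40707 PEG1 summits and 3780 of the 36371 control summits, 8020 of 77078 together. The PEG1 library came from a line labelled as a selected epiline, from a study of selection for energy efficiency and drought tolerance, and the control library from the control line, which the protocol also calls wild-type. Both lines are Brassica napus with the same cultivar label, L. spp. oleifera (Metzg) Sinsk. f. biennis. Leaf 4 of untreated plants aged 26 days was used, and native chromatin cut with micrococcal nuclease was precipitated with the same lot of an antibody against H3K4me3. There was 1 library per line and no replicate, so no difference between the lines has a replicate check and no p-value is given. The number of plants behind each library is not given in the labels, and the no-antibody control library was not analysed here.

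H3K4me3 is placed on nucleosomes at the start of genes that are being transcribed, and in plant leaves most active genes carry it just downstream of the point where transcription begins. Long plant chromosomes alternate between gene-rich stretches and stretches dominated by transposable elements, and the mark is scarce where transposable elements dominate. B. napus carries a C subgenome related to B. oleracea, which is why its reads can be placed on B. oleracea scaffolds. Whether reads from elsewhere in the B. napus genome were also placed there was not tested. The scaffolds were not assigned to chromosomes and the summits were not assigned to genes, so regions are named by their coordinates on scaffolds of version V2 of TO1000, 1-based, with the code that ends each scaffold name. The leaf label could not be checked against marker genes for the same reason.

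Scaffold lengths were not used here. The highest summit position stands in for the length and is called the span. The rule used these positions, and the number of summits on a scaffold is therefore a description without a test. The shortest scaffolds taken were ERB29337, ERB29338 and ERB29339, with spans of 2063192, 2043662 and 2010078 bp. The longest left out were ERB29340, ERB29342 and ERB29343, with 1996457, 1970854 and 1940321 bp. The longest of all was ERB29322, with 3825165 bp. The 18 spans add up to 45.8 Mb, 9.87% of the span of all scaffolds, and held 10.4% of all summits. Each summit carries the score of the authors' peak caller, a −log10 of significance that depends on sequencing depth, which is unknown here. The median score on these scaffolds was 21.8 in PEG1 and 16.9 in the control, and these medians were not compared between the lines.

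The density of H3K4me3 summits differed more than 6-fold between scaffolds, and the order of the scaffolds was nearly the same in both lines. The 18 scaffolds together held 92.6 PEG1 summits per Mb (95% exact Poisson interval 89.8 to 95.4) and 82.6 control summits per Mb (79.9 to 85.2). Intervals here and below cover counting error only. ERB29325 was the densest scaffold, with 158 PEG1 summits per Mb (144 to 173) and 140.4 control summits per Mb (127 to 155). ERB29334 was the sparsest, with 24.3 PEG1 summits per Mb (18.3 to 31.6) and 20.8 control summits per Mb (15.3 to 27.6). The fold between densest and sparsest was 6.51 in PEG1 and 6.76 in the control.

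The other 4 of the 5 densest scaffolds lay close together. ERB29332 had 147 PEG1 and 129.96 control summits per Mb, and ERB29337 had 146 PEG1 and 125 control summits per Mb. ERB29323 had 136 PEG1 and 127 control summits per Mb, and ERB29322 had 134 PEG1 and 117 control summits per Mb. At the other end, ERB29333 had 24.9 PEG1 and 21.1 control summits per Mb, and ERB29324 had 34.4 PEG1 and 31.0 control. ERB29328 had 36.2 PEG1 and 32.5 control summits per Mb, and ERB29327 had 46.8 PEG1 and 41.9 control. ERB29324, the third longest, with a span of 2.97 Mb, thus held 102 PEG1 and 92 control summits, against 463 PEG1 and 411 control summits on ERB29325, the fourth longest, with 2.93 Mb. Spearman's rho between span and summits of both lines per Mb was 0.12 over the 18 scaffolds, so the order by density hardly followed the order by length. The pooled density was nevertheless higher on the scaffolds with spans from 2.5 Mb, with 100.1 PEG1 and 90.2 control summits per Mb. Between the lines, rho of the densities was 0.99, a description over 18 scaffolds that share 2 libraries and 1 reference.

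**Figure D1:**
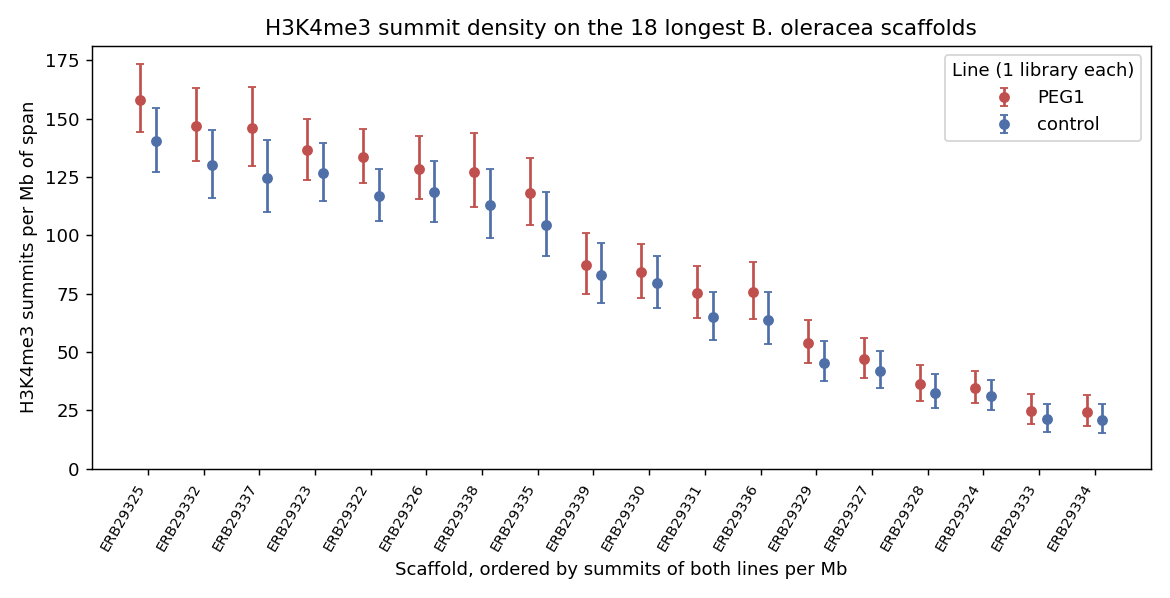
H3K4me3 summits per Mb of span on each of the 18 scaffolds, in PEG1 and in the control, with 95% exact Poisson intervals (counting error only, 1 library per line). The values run down from 158 PEG1 and 140.4 control summits per Mb on ERB29325 to 24.3 PEG1 and 20.8 control summits per Mb on ERB29334, with a step after the eighth and another after the twelfth scaffold.

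The plot of density by scaffold shows 3 bands, which were drawn after the values were seen. The 8 densest scaffolds held between 118 and 158 PEG1 summits per Mb and between 104 and 140.4 control summits per Mb. The next 4 held 75.1 to 87.1 PEG1 and 63.7 to 83.1 control summits per Mb, and the 6 sparsest 24.3 to 53.8 PEG1 and 20.8 to 45.5 control summits per Mb. Of the 17 pairs of neighbours in this order, the intervals overlapped in 15 pairs in PEG1 and in all 17 pairs in the control. The PEG1 pairs that did not overlap stood at the borders of the bands. There ERB29335 had 118 PEG1 summits per Mb (104 to 133) and ERB29339 had 87.1 (74.6 to 101.0), while ERB29336 had 75.7 (64.3 to 88.4) and ERB29329 had 53.8 (45.1 to 63.7). The 8 densest scaffolds made up 46.9% of the span and held 69.5% of the PEG1 and 69.5% of the control summits. The 6 sparsest made up 33.2% of the span and held 13.3% of the PEG1 and 13.1% of the control summits.

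Pooled over the bands, median scores were not lower on the sparse scaffolds, while single scaffolds overlapped. In PEG1 the median score was 23.1 on the 6 sparsest scaffolds and 21.2 on the 8 densest. In the control it was 20.8 on the 6 sparsest and 16.0 on the 8 densest. The medians of single scaffolds ran from 18.4 to 29.7 in PEG1 and from 17.9 to 24.9 in the control on the 6 sparsest, and from 18.3 to 25.1 in PEG1 and from 13.96 to 19.3 in the control on the 8 densest. The sparsest, ERB29334, had the lowest PEG1 median of its band, 18.4. Summits below the lower quartile of their line's scores on the 18 scaffolds made up 21.1% of the PEG1 summits on the 6 sparsest and 25.5% on the 8 densest. In the control these shares were 19.6% and 26.4%. Over the 18 scaffolds, Spearman's rho between density and median score was −0.36 in PEG1 and −0.73 in the control, as a description. The best-scored summits came from all 3 bands, as their positions below show. The 3 best PEG1 summits stood on ERB29328 at 1915338 (score 117) and 1201896 (110.2) and on ERB29334 at 143363 (106).

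The scaffolds were cut into 449 full windows of 100 kb, counted from position 1. A window held a median of 9 PEG1 summits (range 0 to 26) and 8 control summits (0 to 25). The counts of both lines together had a median of 17, and the middle 50% of the windows held between 8 and 26. Windows at or under 0.25 times that median, up to 4 summits of both lines, were called sparse, and windows at or over 1.5 times it, from 26 summits, dense. There were 65 sparse windows on 9 scaffolds and 116 dense windows on 12. The dense windows held 1972 PEG1 summits, 46.5% of the line, and 1784 control summits, 47.2%. The sparse windows held 60 PEG1 summits, 1.42% of the line, and 51 control summits, 1.35%. Of the 116 dense windows, 108 lay on the 8 densest scaffolds, and of the 65 sparse windows, 61 lay on the 6 sparsest. No window of the 8 densest scaffolds was sparse and none of the 6 sparsest was dense. Bands and window classes were drawn from the same summits, so this overlap follows in part from the grouping.

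**Figure D2:**
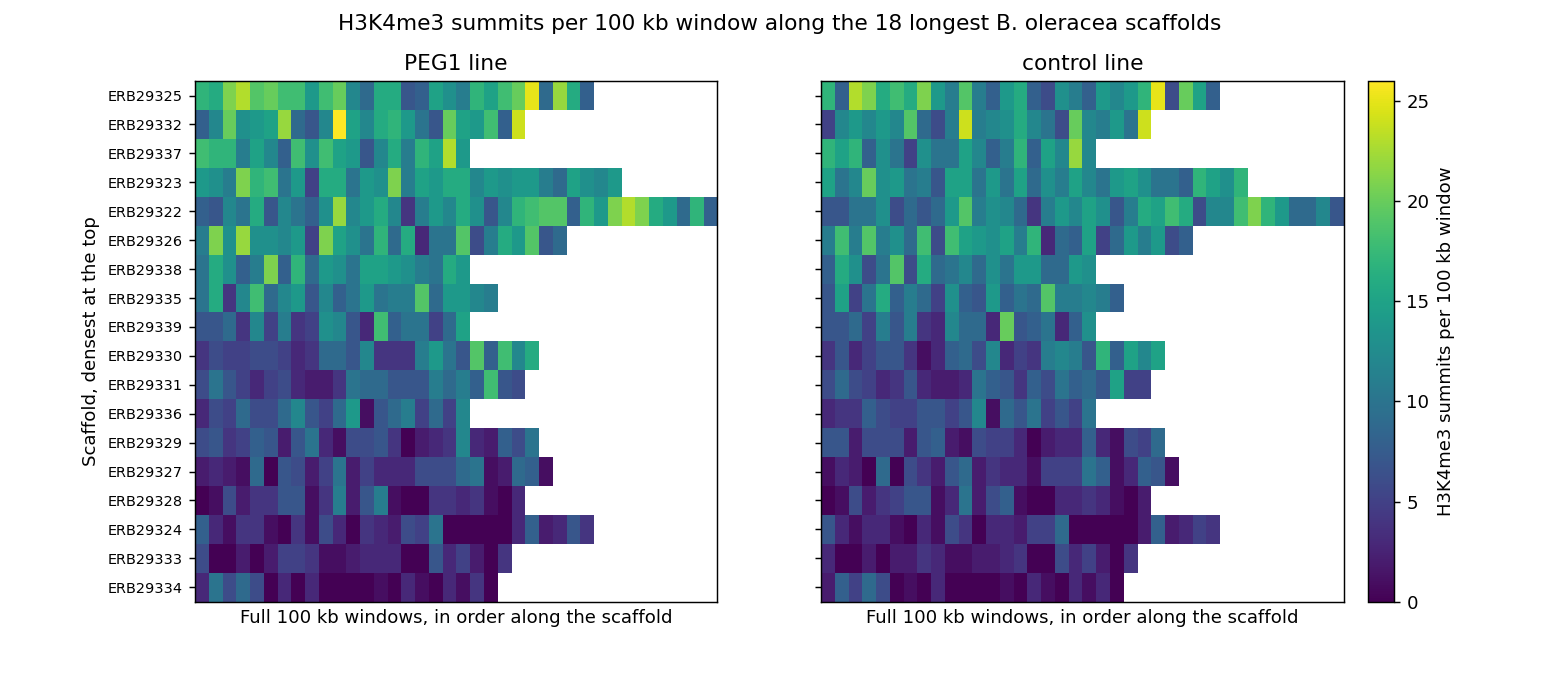
Summits per full 100 kb window along the 18 scaffolds, PEG1 on the left and the control on the right, each row a scaffold and each cell a window, coloured from 0 to 26 summits. The same windows are bright and dark in both lines, and the empty windows gather on the 6 scaffolds at the bottom.

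The fullest windows held between 44 and 50 summits of both lines, with 3 windows tied at 44. On ERB29325 the window from 2400001 to 2500000 held 25 PEG1 and 25 control summits. On ERB29332 the window from 1000001 to 1100000 held 26 PEG1 and 24 control summits, and the window from 2300001 to 2400000 held 24 PEG1 and 24 control. The window of ERB29337 from 1800001 to 1900000 held 23 PEG1 and 22 control summits, and that of ERB29322 from 3100001 to 3200000 held 23 PEG1 and 21 control. The other windows with 44 were on ERB29325, with 21 PEG1 and 23 control summits from 200001 to 300000 and 23 PEG1 and 21 control from 300001 to 400000.

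Well-filled windows, not all of them dense by the limit above, formed stretches. Stretches of at least 3 neighbouring windows with 22 or more summits of both lines numbered 22 on 9 scaffolds, and they held 43.0% of the PEG1 and 42.9% of the control summits in 25.4% of the windows. The longest covered the first 1200 kb of ERB29325, with 216 PEG1 and 195 control summits and never fewer than 23 of both lines per window. The next covered 900 kb of ERB29323 from 1600001 to 2500000, with 128 PEG1 and 113 control summits. Stretches of at least 3 windows with at most 0.5 times the median number, up to 8 summits of both lines, numbered 12 on 7 scaffolds and held 3.42% of the PEG1 and 3.28% of the control summits in 17.8% of the windows. The longest ran over 1700 kb of ERB29334, from 500001 to 2200000, with 19 PEG1 and 16 control summits. The second covered 1000 kb of ERB29328 from 1400001 to 2400000, with 20 PEG1 and 17 control summits, and the third 900 kb of ERB29333 from 800001 to 1700000, with 17 PEG1 and 16 control. These stretches were defined after the window counts were seen. Pearson's r between the counts of neighbouring windows was 0.61 over 431 pairs, as a description. The pairs were pooled over the scaffolds without removing scaffold means, so r also holds the differences between scaffolds. The SD of the mean window count between scaffolds was 8.89 summits of both lines, and that between windows of a scaffold was 7.23. The part of r that comes from order within a scaffold was not tested.

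The density changed along some scaffolds as well as between them. The contrast between the first and the last part of a scaffold was strongest on ERB29334, whose first 11 windows held 40 PEG1 and 34 control summits and whose last 11 held 13 PEG1 and 12 control. It ran the other way on ERB29330, where the first 12 windows held 69 PEG1 and 64 control summits and the last 12 held 127 PEG1 and 120 control. On ERB29331 the first 12 held 63 PEG1 and 60 control summits and the last 12 held 109 PEG1 and 92 control. ERB29323, by contrast, held 213 PEG1 and 191 control summits in its first 15 windows and 202 PEG1 and 193 control in its last 15. The counts of both lines in the fuller part were 2.96 times those in the emptier part on ERB29334 and 1.02 times on ERB29323. Between neighbouring windows the counts of both lines differed by a median of 6, and by 20 or more in 22 of 431 pairs. The steepest step was on ERB29325, where the window from 2500001 to 2600000 held 9 PEG1 and 6 control summits next to the window with 25 PEG1 and 25 control summits. The second was on ERB29339, where 3 PEG1 and 3 control summits from 1200001 to 1300000 were followed by 18 PEG1 and 20 control summits from 1300001 to 1400000. From a window to the next, the counts of the lines moved the same way in 340 pairs and opposite ways in 21, and in 70 pairs at least 1 line kept its count.

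Empty windows were shared by the lines. No summit of either line lay in 28 of the 449 windows, 6.24%. PEG1 had no other empty window, and the control had 1, on ERB29327, where PEG1 held 1 summit. All 28 lay on the 6 sparsest scaffolds, and 15 of them in runs of 2 or more. On ERB29324 they lay from 600001 to 700000, from 1100001 to 1200000 and in an unbroken run of 5 from 1800001 to 2300000. ERB29334 had a run of 4 empty windows from 900001 to 1300000.

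The longest unmarked gaps between neighbouring summits had nearly the same ends in both lines. With the summits of both lines pooled, 109 gaps of at least 50 kb were found on 16 scaffolds. They covered 23.6% of the span, while the median distance between neighbouring summits of a line was 5300 bp in PEG1 and 5888 bp in the control. ERB29325 and ERB29332 had none. The longest, 588 kb on ERB29324 from 1753509 to 2341661, was 588376 bp long in PEG1 and 588175 bp in the control. The second, on ERB29334 from 884406 to 1336352, was 451948 bp long in PEG1 and 452002 bp in the control. The third, on ERB29328 from 1416936 to 1729336, was 312461 bp long in PEG1 and 312402 bp in the control, and the fourth, on ERB29333 from 45232 to 355379, was 310180 bp long in PEG1 and 310211 bp in the control. The fifth covered 233 kb of ERB29334 from 1336379 to 1569412. A gap is a stretch without a listed summit, and neither undetermined bases nor repeated sequence in these stretches was analysed here. The stretch before the first summit of a scaffold counts in its span but not as a gap. On ERB29328 the first summit stood at 136066 in PEG1 and 136078 in the control.

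Gaps took up more of the span on the sparse scaffolds. The bands were formed on the density of these same summits, so gap shares, spacing and empty windows in part restate that density. Gaps of at least 50 kb covered 55.6% of the 6 sparsest scaffolds, 18.9% of the 4 between and 2.88% of the 8 densest. They covered 73.0% of ERB29334, 69.6% of ERB29333, 61.4% of ERB29328, 57.0% of ERB29324, 44.7% of ERB29327 and 30.9% of ERB29329. The share on ERB29329 was close to the 27.02% of ERB29331 in the middle band. Of the 24 gaps of at least 100 kb, 23 lay on the 6 sparsest scaffolds, and the other, 131.6 kb on ERB29331 from 842382 to 973966, lay on a scaffold of the middle band. The longest gap of the 8 densest scaffolds was 84.5 kb on ERB29323, from 818027 to 902483. Over all neighbouring summits, long gaps included, the median distance was 11688 bp in PEG1 and 14094 bp in the control on the 6 sparsest scaffolds, against 4714 bp in PEG1 and 5168 bp in the control on the 8 densest.

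**Figure D3:**
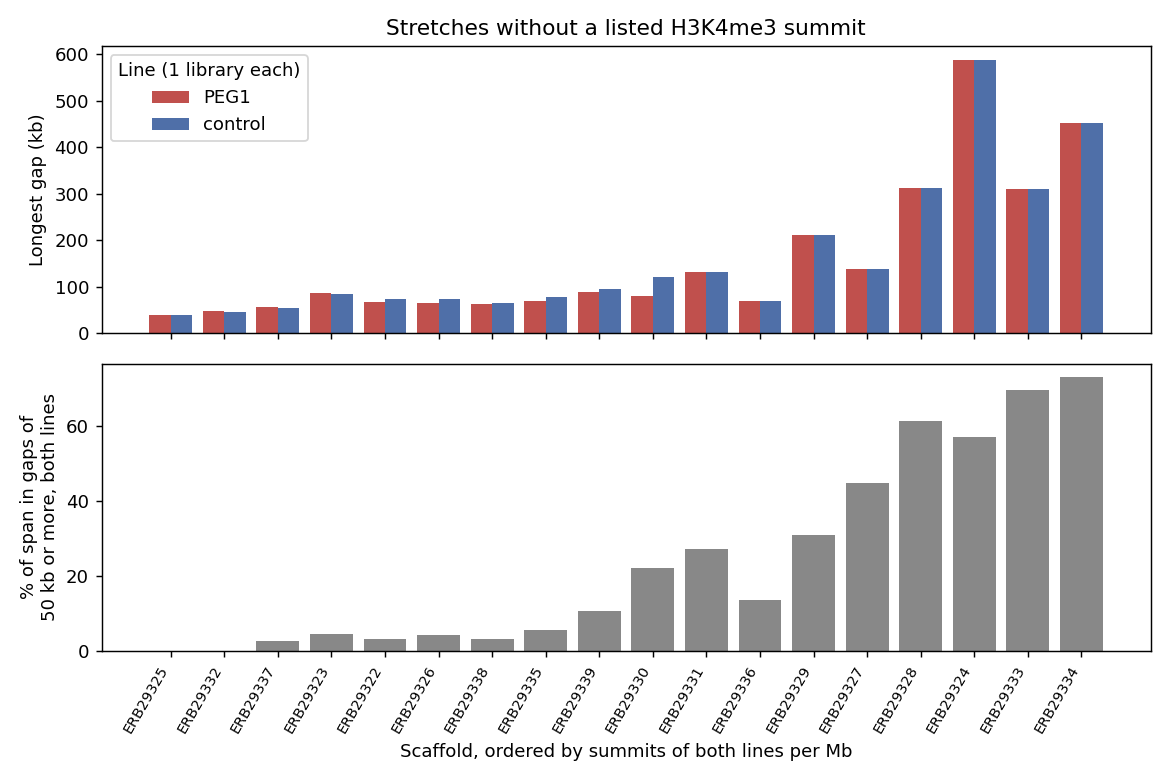
Upper panel, the longest distance between neighbouring summits on each scaffold in PEG1 and in the control (kb). Lower panel, the percentage of the span in gaps of at least 50 kb with no summit of either line. The bars of the lines differ most on ERB29330, where the longest PEG1 gap was 80.7 kb and the longest control gap 121.6 kb, and the lower bars reach 73.0% on ERB29334.

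Marked islands stood between the gaps. Between 2 successive gaps of at least 50 kb lay 93 islands on 14 scaffolds, and all 93 held summits of PEG1 and of the control. They held a median of 5 PEG1 and 4 control summits over a median length of 58.5 kb. In 11 islands each line had a single summit, the lines being within 150 bp of each other in 9 and within 500 bp in all 11. The one with the longest gaps on both sides lay on ERB29334, 452 kb after the summit before it and 233 kb ahead of the next, with PEG1 at 1336353 (score 47.5) and the control at 1336378 (27.9), 25 bp apart. Another lay on ERB29334 between gaps of 112.2 and 94.97 kb, with PEG1 at 1985036 (20.3) and the control at 1985049 (23.8). On ERB29333, between gaps of 310.1 and 210.3 kb, an island of 1397 bp from 355380 to 356777 held 2 PEG1 and 2 control summits with best scores of 40.6 in PEG1 and 24.9 in the control. The islands were defined after the gaps were seen.

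Some gaps of a line held summits of the other. Of the 110 PEG1 gaps of at least 50 kb, 8 held a control summit more than 500 bp from both ends, 8 such summits in all, with a median score of 7.52. Of the 124 control gaps, 38 held such a PEG1 summit, 51 in all, with a median score of 5.67. The highest score among such summits was 26.6 in the control and 80.2 in PEG1. That PEG1 summit, on ERB29323 at 1541585, lay only 742 bp from a control summit, so summits near a gap's end are included. The shares of such gaps over all scaffolds are not given here. The PEG1 list is the longer one, and the effect of its length on these counts was not tested. The longest control gap with at least 3 PEG1 summits was 164 kb on ERB29334 between 664814 and 828802. Its 4 PEG1 summits all stood within 1704 bp of its ends, at 664863, 665559, 666518 and 828767. In the second, 121.6 kb on ERB29330 between 677138 and 798747, PEG1 summits at 757844 (score 16.6) and 772193 (6.68) lay 40903 and 26554 bp from the nearest control summit. The next 3 were on ERB29327. They lay between 1121389 and 1236104, with a PEG1 summit at 1214116 (3.86), between 1526803 and 1629081, with PEG1 summits at 1527436 (24.3), 1579639 (3.61) and 1611533 (2.67), and between 2071790 and 2172363, with a PEG1 summit at 2099950 (3.76).

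The longest PEG1 gaps of this kind spanned 32.3 to 80.8 kb, and the unmatched control summits in them scored 10.8 or less. The longest with at least 3 control summits was 80.8 kb on ERB29327 between 2172347 and 2253110, with an unmatched control summit at 2252037 (score 5.63). In the second, 51.9 kb on ERB29326 between 1413872 and 1465803, a control summit at 1439717 (10.8) lay 25845 bp from the nearest PEG1 summit. The others lay on ERB29332 between 2249826 and 2297617, with a control summit at 2294258 (6.72), and on ERB29339 between 1088706 and 1129480, with control summits at 1112453 (5.51) and 1118313 (3.11), and between 566691 and 598950, with control summits at 591941 (5.41) and 598327 (6.83). Gaps of at least 10 kb with 3 or more summits of the other line numbered 16 in PEG1 and 120 in the control. These counts include counterparts of the gap's own end summits, and in the 10 gaps named here between 1 and 3 of the summits inside were unmatched.

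Each of the 18 scaffolds carried more PEG1 than control summits, by factors that could not be told apart within counting error. The ratio of PEG1 to control summits was 1.12 (95% exact conditional interval 1.07 to 1.17), against 1.12 (1.10 to 1.14) on all other scaffolds. With both lists taken at equal length by score, which brings the ratio near 1 by construction, the ratio on the 18 scaffolds was 1.00. With the full lists it lay between 1.05 on ERB29339 and 1.19 on ERB29336. The interval of each scaffold included 1.12, and that of 17 scaffolds also included 1. In sparse windows the ratio was 1.18 (0.80 to 1.74), in dense windows 1.11 (1.04 to 1.18) and in the windows between 1.13 (1.06 to 1.20), which overlap. These intervals treat the lines as independent, although most summits are shared.

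Window by window the lines ran in parallel, with Pearson's r of 0.96 and Spearman's rho of 0.97 over the 449 windows. Over the 4100 full windows of all B. oleracea scaffolds the values were similar, with r of 0.955 and rho of 0.957. The windows share 2 libraries and 1 reference, and the correlations are descriptions. Among the 187 windows with at least 20 summits of both lines, PEG1 had more summits than the control in 131, the same number in 35 and fewer in 21, 11.2%. Over all B. oleracea scaffolds PEG1 had fewer in 14.5% of such windows. The PEG1 share of the summits in these windows had a median of 52.4% and an SD of 3.60 percentage points.

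**Figure D4:**
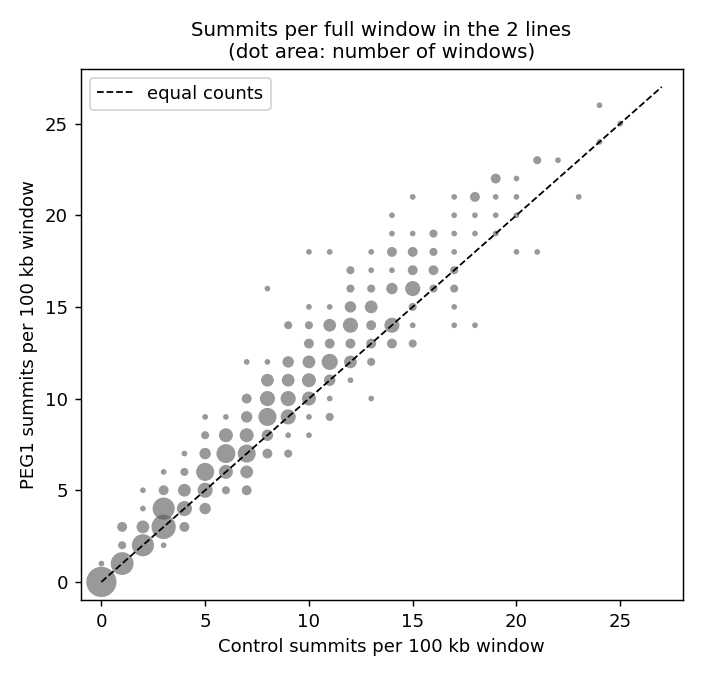
PEG1 against control summits in each of the 449 full 100 kb windows, dot area giving the number of windows and the dashed line equal counts. The dots follow the line from 0 up to 26 PEG1 and 25 control summits, with more windows above it than below.

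In the windows with the highest PEG1 shares most unmatched summits had low scores. The highest PEG1 share, 66.7% (95% exact binomial interval 44.7 to 84.4), was on ERB29325 from 100001 to 200000, with 16 PEG1 and 8 control summits. The 8 PEG1 summits there without a control summit within 500 bp scored between 3.76 and 25.3, and 6 of them scored under 10. The next were on ERB29337 from 900001 to 1000000, with 18 PEG1 and 10 control summits, and on ERB29325 from 900001 to 1000000, with 18 PEG1 and 11 control. In these windows the unmatched PEG1 summits scored at most 9.99 and 8.10. Of the lowest PEG1 shares, the first and second were on ERB29326, and windows of ERB29326 and ERB29335 tied for the third. On ERB29326 PEG1 held 10 and the control 13 summits from 1200001 to 1300000, a share of 43.5% (23.2 to 65.5), 14 PEG1 and 18 control from 700001 to 800000, and 9 PEG1 and 11 control from 1400001 to 1500000. On ERB29335 PEG1 also held 9 and the control 11 summits from 1700001 to 1800000. The intervals of all these windows include 50%.

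Most summits of the long scaffolds had a counterpart at nearly the same position in the other line. A control summit lay within 150 bp of 68.5% of the PEG1 summits (95% Wilson interval 67.1 to 69.8), against 69.0% over all B. oleracea scaffolds. A PEG1 summit lay within 150 bp of 76.8% of the control summits (75.4 to 78.1), against 77.2% over all. No control summit lay within 500 bp of 781 PEG1 summits, 18.4% (17.3 to 19.6), and the share over all scaffolds was also 18.4%. No PEG1 summit lay within 500 bp of 324 control summits, 8.57% (7.72 to 9.51), against 8.95% over all. These shares are close to those of the whole lists. With both lists taken at equal length by score, 12.7% of the PEG1 and 12.4% of the control summits of these scaffolds were unmatched. Equal length of mostly paired lists brings these shares together by construction. Between scaffolds the unmatched share ranged from 12.4% on ERB29328 to 23.4% on ERB29336 in PEG1 and from 2.13% on ERB29334 to 11.04% on ERB29326 in the control.

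The unmatched share of the control was lowest on the 6 sparsest scaffolds but did not rise in the order of the bands. On the 6 sparsest scaffolds 27 of 494 control summits, 5.47% (3.78 to 7.84), had no PEG1 summit within 500 bp, against 9.39% (7.40 to 11.9) on the 4 between and 8.95% (7.92 to 10.1) on the 8 densest. Single scaffolds overlapped, with 8.70% on the sparse ERB29324 and 6.03% on the dense ERB29332. The control scores were higher and weak control summits made up a smaller share on the 6 sparsest than on the 8 densest, as given above, and their part in it was not tested. In PEG1 the unmatched shares were 16.8% (13.98 to 20.2) on the 6 sparsest and 18.9% (17.5 to 20.4) on the 8 densest, with overlapping intervals.

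The matched positions were close. Of the 3440 pairs of mutually nearest summits within 500 bp, 62 were at the same base and 60.2% within 50 bp, with a median offset of 37 bp. The PEG1 summit had the higher coordinate in 1735 pairs, 50.4%, and the lower in 1643. In 537 pairs, 15.6%, the summits were more than 150 bp apart, farther than the DNA on a single nucleosome. Spearman's rho of the scores of the pairs was 0.86, as a description. Each line's summits were divided by score into 4 groups of equal size. The median distance to the other line's nearest summit, for summits that had one within 500 bp, was 74 bp in the weakest PEG1 group and 26 bp in the strongest, and 75 and 24 bp in the control.

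On the 18 scaffolds unmatched summits were concentrated among weak scores. The shares by score group over all B. oleracea scaffolds are not given here, so this is not described as particular to the long scaffolds. In the weakest PEG1 group 55.9% (52.9 to 58.9) were unmatched, against 2.45% (1.68 to 3.57) in the strongest. In the control the shares were 23.3% (20.7 to 26.1) in the weakest group and 2.54% (1.71 to 3.75) in the strongest. The median score of unmatched summits was 5.92 in PEG1 and 5.47 in the control, against 26.0 in PEG1 and 17.9 in the control for matched ones.

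**Figure D5:**
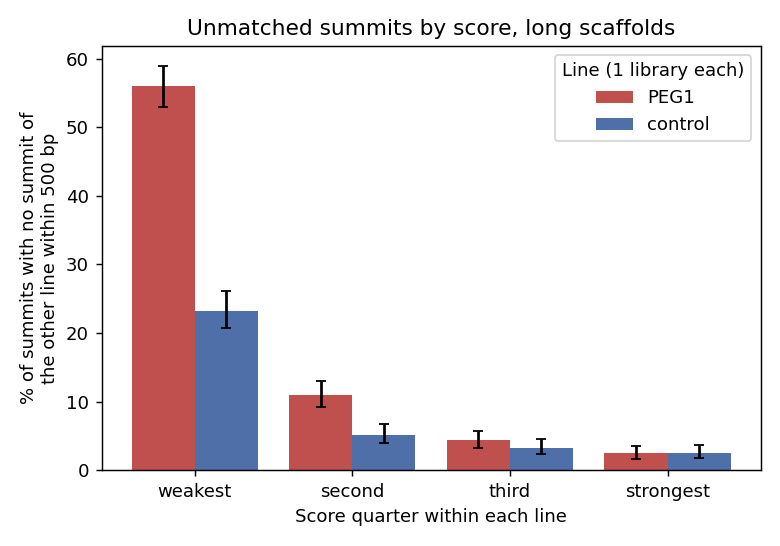
Percentage of unmatched summits on the 18 scaffolds (nearest summit of the other line more than 500 bp away), in 4 equal groups by score within each line, with 95% Wilson intervals. The PEG1 bars stand at 55.9% in the weakest group and 2.45% in the strongest, and the control bars at 23.3% and 2.54%.

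The 5 best-scored summits of each line all had a counterpart at most 61 bp away. After the 3 PEG1 summits named above came ERB29337 at 111285 (score 104) and ERB29324 at 744963 (102). Their control counterparts on ERB29328 lay at 1915374 (60.8) and 1201892 (81.7), on ERB29334 at 143357 (60.01), on ERB29337 at 111224 (60.4) and on ERB29324 at 744954 (82.7). The best control summits were on ERB29336 at 1772244 (96.6), ERB29324 at 1384582 (93.7), ERB29331 at 2372807 (91.3), ERB29322 at 897655 (90.7) and ERB29336 at 709682 (87.6), and their PEG1 counterparts lay 32, 24, 3, 22 and 5 bp away. No summit was among the best 5 of both lines.

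Few unmatched summits had high scores. A score of at least 20 was reached by 81 of the 781 unmatched PEG1 summits and 43 of the 324 unmatched control summits. On these scaffolds that score lies below the PEG1 median of 21.8 and above the control median of 16.9. The counts were therefore not compared between the lines, and counts over all scaffolds are not given here. The best unmatched summits of the lines were neighbours on ERB29323, with PEG1 at 1541585 (80.2) and the control at 1540843 (65.3), 742 bp apart. The next in PEG1 were on ERB29336 at 314605 (66.8, nearest control summit 662 bp away) and on ERB29339 at 181424 (65.2, 1363 bp). In the control they were on ERB29333 at 776656 (50.4, nearest PEG1 summit 1394 bp away) and on ERB29329 at 1455767 (45.95, 1072 bp).

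Unmatched summits mostly stood alone, as unmatched shares of only 18.4% in PEG1 and 8.57% in the control would by themselves give. The share standing alone over all scaffolds is not given here, so this is not a trait of the long scaffolds. Of the 781 in PEG1, 501 had no unmatched neighbour, and 103 runs of 2 and 24 runs of 3 or more made up the rest. Of the 324 in the control, 279 stood alone, with 21 runs of 2 and 1 run of 3. The longest PEG1 run had 5 summits over 18778 bp on ERB29322, at 3097481 (score 5.67), 3102894 (17.5), 3108713 (9.22), 3109652 (34.3) and 3116259 (3.22), between 609 and 2889 bp from the nearest control summit. Runs of 3 with the best scores lay on ERB29322 from 1430390 to 1442820 (best score 58.7) and on ERB29332 from 1198326 to 1205315 (46.5). The control run of 3 was on ERB29322 at 974092 (10.2), 978487 (20.6) and 984992 (4.83). Its best runs of 2 were on ERB29326 from 756797 to 760210 (33.1) and on ERB29322 from 500018 to 525996 (28.6).

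Compared with the 99 scaffolds whose spans lay between 1 and 2 Mb, the long scaffolds had a higher pooled density and a wider spread between scaffolds. Their 92.6 PEG1 and 82.6 control summits per Mb stood against 85.8 PEG1 (84.2 to 87.3) and 76.9 control summits per Mb (75.4 to 78.4). The intervals do not cover the spread between scaffolds, an SD of 46.6 PEG1 and 41.7 control summits per Mb on the long ones. The median long scaffold held 85.6 PEG1 and 81.2 control summits per Mb. Empty windows made up 6.24% of the windows on the long scaffolds and 4.04% of the 1286 windows on those of 1 to 2 Mb. The SD of the mean window count between scaffolds was 8.89 summits of both lines against 7.48, and the SD between windows of a scaffold was 7.23 against 7.46. Gaps of at least 50 kb covered 23.6% of the span of the long scaffolds and 22.3% of that of the others. By number they went the other way, with 23.8 per 10 Mb on the long scaffolds and 25.2 on the others. None of these differences was tested.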

How the data were processed

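Native ChIP libraries of canola leaf were analysed from the authors' deposited lists of H3K4me3 peak summits on B. oleracea scaffolds. Per the submitters' processing notes, MACS2 (2.0) was the peak caller. Not given in the sources used here are the aligner, any filter and how the no-antibody library was used. The authors' score for a summit is the −log10 of a p-value or a q-value, and which of them is not stated. The lists against B. rapa were not used here.

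Summits were matched to the nearest summit of the other line on the same scaffold, within 150 bp for a shared position and beyond 500 bp for an unmatched summit. Windows of 100 kb started at position 1, and the partial window at the end of a scaffold was left out. Read depth is unknown. Alternatives were other distances, window sizes, minimum spans, score limits and equally long lists. The members, lists and rules were chosen with earlier results of these data known. The rule for named regions took the 5 densest and 5 sparsest scaffolds, the 5 fullest and 5 emptiest windows with ties broken by scaffold name and start, the 5 longest gaps, per line 5 gaps holding at least 3 summits of the other, the 5 best summits, the 3 best unmatched summits and the 3 longest unmatched runs, and the 3 windows with the highest and lowest PEG1 share. Other named scaffolds, the stretches, islands and steps were chosen after their values were seen.

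The matching was tested on simulated data made from the 3780 control summits of these scaffolds, moved by less than the matching distance. It recovered 100% of the shared and 100% of 200 added summits, as built in. Computations ran in Python 3.11.15 with pandas 2.3.3, NumPy 2.4.6 and SciPy 1.17.1, and plots in matplotlib 3.10.9. Wilson, exact Poisson, exact binomial and exact conditional intervals are at 95% and cover counting error only.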

Additional observations from a re-analysis of the deposited data

How the results depend on the processing

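With 1 library per line no library could be left out. No paired analysis was possible because each line has 1 library and no test was made. Of 67 alternative values, 33 stayed within the interval of the value reported, within 1.5 times for counts and medians or within 0.05 for r, and 34 did not. Depth is unknown, so how many weak summits a deeper library would add cannot be read from these lists. PEG1 summits per Mb were 88.7 with spans from 1.5 Mb, 100.1 with spans from 2.5 Mb, 47.7 when each list kept its upper scores, from its median on, and 82.7 with equally long lists. Control summits per Mb were 79.2 with spans from 1.5 Mb, 90.2 with spans from 2.5 Mb and 42.1 with the upper scores. Keeping the upper scores removes summits by construction, and equally long lists bring the ratio to 1.00. The PEG1 share within the matching distance was 48.8% at 50 bp, 77.4% at 300 bp, 86.8% at 1000 bp, 70.03% with the upper scores and 74.2% with equally long lists. The control share was 54.8% at 50 bp, 86.9% at 300 bp, 96.2% at 1000 bp, 79.3% with the upper scores and 74.3% with equally long lists. The unmatched PEG1 share was 27.7% beyond 200 bp, 13.2% beyond 1000 bp, 9.32% beyond 2000 bp, 22.04% with the upper scores and 12.7% with equally long lists. The unmatched control share was 18.9% beyond 200 bp, 3.81% beyond 1000 bp, 1.72% beyond 2000 bp, 11.8% with the upper scores and 12.4% with equally long lists. Equally long lists of mostly paired summits bring the unmatched shares of the lines together by construction. What made the PEG1 share larger with the full lists was not tested. Empty windows made up 11.9% at 50 kb and 1.36% at 200 kb. Sparse windows numbered 119 at 0.5 times the median. Gaps without a summit of either line numbered 277 from 30 kb, 24 from 100 kb and 181 from 50 kb with the upper scores. With those stronger summits alone, 7 of the 8 densest and 6 of the 6 sparsest scaffolds were the same.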
